A study of Mus musculus with 34 samples.

Results

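The annexins are calcium-dependent, phospholipid-binding proteins. Each carries a conserved core of repeated domains that docks onto negatively charged membrane surfaces when calcium rises, and a variable N-terminal tail that binds partner proteins such as the S100 proteins. They are known for organizing membranes during exocytosis, endocytosis and the resealing of torn plasma membranes, and in the kidney they are found mainly in tubular epithelium, infiltrating leukocytes and interstitial cells. The 10 genes described here were a listed set, *Anxa1* to *Anxa8*, *Anxa11* and *Anxa13*, among 23509 genes in the count tables. The tables held 12 annexin symbols, the remaining ones being *Anxa9* and *Anxa10*. All 10 listed genes passed the filter on low counts, which left 15644 genes.

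Kidney polyA RNA was sequenced at postnatal day 28 (P28) from 34 C57BL6 mice, 1 library per mouse, and the labels number the mice of each group separately. UNT mice (n = 12) were untreated and wildtype, with no transgene. *Pkd2*-KO mice, whose genotype the sample labels spell Pdk2KO, received subcutaneous PBS (n = 11) or RGLS4326 at 20 mg per kg (n = 11) on P10, P11, P12 and P19. *Pkd2* encodes polycystin-2, a cation channel of the primary cilium whose loss causes polycystic kidney disease, and RGLS4326 is a short oligonucleotide complementary to the seed of the microRNA miR-17. The study gives the model as Pkhd1/cre;Pkd2F/F, in which a Cre driven by the promoter of *Pkhd1*, a gene of renal tubular epithelium, deletes floxed *Pkd2*. The share of cells that carry the deletion and the sex of the mice are not given in the sources used here. PBS vs UNT compared cystic with normal kidneys, RGLS4326 vs PBS compared treated with untreated cystic kidneys, and RGLS4326 vs UNT compared treated cystic with normal kidneys. The PBS mice served in both of the former comparisons and the UNT mice in the outer ones, so these comparisons are not independent of each other.

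The libraries held 17603122 to 54981992 reads assigned to genes. Levels are given as CPM, the count of a gene divided by the size of its library in megareads, with library sizes scaled by TMM, a trimmed mean of log ratios between libraries. *Pkd2* itself ran from 219.6 to 338 CPM in UNT mice, from 98.03 to 215 CPM in PBS mice and from 170.0 to 237 CPM in RGLS4326 mice, so its level in every PBS mouse was below that in every UNT mouse. The no-gene share, the percentage of uniquely mapped reads that the counting placed in no gene, was 12.9 to 14.9% in UNT, 6.08 to 11.0% in PBS and 5.82 to 14.6% in RGLS4326 mice. The deposited library names restarted their numbering into 3 series, each holding 3 or 4 mice of every group, and these were examined as possible batches; what the restarts stand for is not given. Omitting the TMM scaling moved the median log2 fold change of all tested genes in PBS vs UNT from 0.04 to 0.33, and the calls from 6746 higher and 6095 lower to 8970 higher and 4099 lower. The kidney origin of the tissue was borne out by the proximal tubule markers, which summed to 1591 CPM or more in every library.

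RGLS4326 acts against miR-17, so the annexin transcripts were searched for the bases that pair with its seed. The mature miR-17 sequence from RefSeq is shown with its seed, bases 2 to 8, in capitals.

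mmu-miR-17-5p: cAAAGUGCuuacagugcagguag

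The letters of an mRNA that match it are GCACTTT, the reverse complement of the seed, or the run CACTTTA, which ends in the A that faces the first base of the microRNA. None of these was found in the 21 3′UTRs that the GENCODE M21 annotation (GRCm38) gives for 9 of the annexins, and *Anxa13* has no annotated 3′UTR there. Among 14193 tested genes with a 3′UTR, 3011 (21.2%) held such a match in their longest one, whose median length was 1150 bases. The longest 3′UTRs of the annexins ran from 286 bases (*Anxa1*) to 1219 bases (*Anxa7*), and 8 of the 9 were shorter than that median. The 6 bases CACTTT alone, which are a weaker match and carry no statement about binding, occurred in 2 of these longest 3′UTRs. They are shown in capitals with their surroundings, for *Anxa1* at chr19:20373487-20373492 on the minus strand and for *Anxa3* at chr5:96825042-96825047 on the plus strand, the latter in a transcript that ends inside the gene.

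Anxa1 3′UTR, bases 222 to 227: cataagcaagtCACTTTggtaccattcc

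Anxa3 3′UTR, bases 16 to 21: atgagatttttCACTTTctgtgaaacga

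The promoters of *Anxa1*, *Anxa2* and *Anxa8* are shown because these genes differed more than 5-fold between PBS and UNT kidneys and followed each other over the PBS mice, with pairwise r from 0.904 to 0.950. *Anxa3* met the same conditions (6.35-fold, r from 0.908 to 0.928 with these 3) and is not shown because it was not matched to a window. The 250 bases before the annotated start were taken from RefSeq (GRCm38.p6), 5′ to 3′ along the gene's own strand, and matches to 4 short motifs on either strand are in capitals. The motif of the TATA box was searched as TATAAA and that of the GC box as GGGCGG. The AP-1 site was searched as TGANTCA, and the CCAAT box by the letters of its name. RefSeq windows were matched by symbol for 7 of the 10 genes, *Anxa1*, *Anxa2*, *Anxa4*, *Anxa5*, *Anxa7*, *Anxa8* and *Anxa11*. *Anxa6* and *Anxa13* were not matched either.

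Anxa1, chr19:20390672-20390921, minus strand: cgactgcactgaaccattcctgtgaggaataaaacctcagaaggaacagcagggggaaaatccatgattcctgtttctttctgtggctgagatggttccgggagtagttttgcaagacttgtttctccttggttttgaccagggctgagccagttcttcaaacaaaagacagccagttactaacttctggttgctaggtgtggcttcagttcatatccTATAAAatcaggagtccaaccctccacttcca

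Anxa2, chr9:69453433-69453682, plus strand: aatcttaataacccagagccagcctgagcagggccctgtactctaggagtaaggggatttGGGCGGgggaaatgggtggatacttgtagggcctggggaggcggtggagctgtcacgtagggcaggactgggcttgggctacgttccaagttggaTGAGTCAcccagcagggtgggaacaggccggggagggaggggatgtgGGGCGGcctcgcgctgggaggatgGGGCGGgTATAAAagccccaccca

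Anxa8, chr14:34085729-34085978, plus strand: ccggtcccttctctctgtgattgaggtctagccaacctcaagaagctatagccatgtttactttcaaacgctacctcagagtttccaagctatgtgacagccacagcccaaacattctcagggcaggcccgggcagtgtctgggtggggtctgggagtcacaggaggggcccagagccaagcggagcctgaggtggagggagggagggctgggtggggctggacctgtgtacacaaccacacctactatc

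The *Anxa1* window held TATAAA from 32 to 27 bases before the start. That of *Anxa2* held TATAAA from 17 to 12 bases before the start, 3 copies of GGGCGG, and TGAGTCA from 95 to 89 bases before it. In the *Anxa8* window none of these letters occurred. Of all 32851 promoter windows, 12.4% held TATAAA, 33.9% CCAAT, 32.7% GGGCGG and 6.75% TGANTCA. No motif was shared by all 3 promoters, and these matches are a description of letters only.

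In PBS vs UNT, 9 of the 10 annexins were called higher (adjusted p under 0.05), where 43.1% of all tested genes were called higher, and the remaining member, *Anxa13*, was not called. A log2 fold change above 1 was reached by 6 of them, against 18.2% of all tested genes. In each of the 9 called genes every PBS mouse lay above every UNT mouse, which 22.7% of all tested genes also showed. The median log2 fold change of the 10 annexins was 1.33, beside 0.04 over all tested genes. Summed over the 10 genes, the level was 765 to 865 CPM in UNT, 1786 to 2739.8 CPM in PBS and 1411 to 2265 CPM in RGLS4326 mice. Fewer cells of a type and less RNA per cell cannot be told apart in bulk tissue, so these levels describe the kidney as a whole. The no-gene share of UNT and PBS mice did not overlap and cannot be told apart from the difference between these groups; with that share as a covariate, 7 of the 10 annexins were called higher in PBS vs UNT, all but *Anxa7*, *Anxa11* and *Anxa13*, beside 35.4% of all tested genes in that fit.

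**Figure D1:**
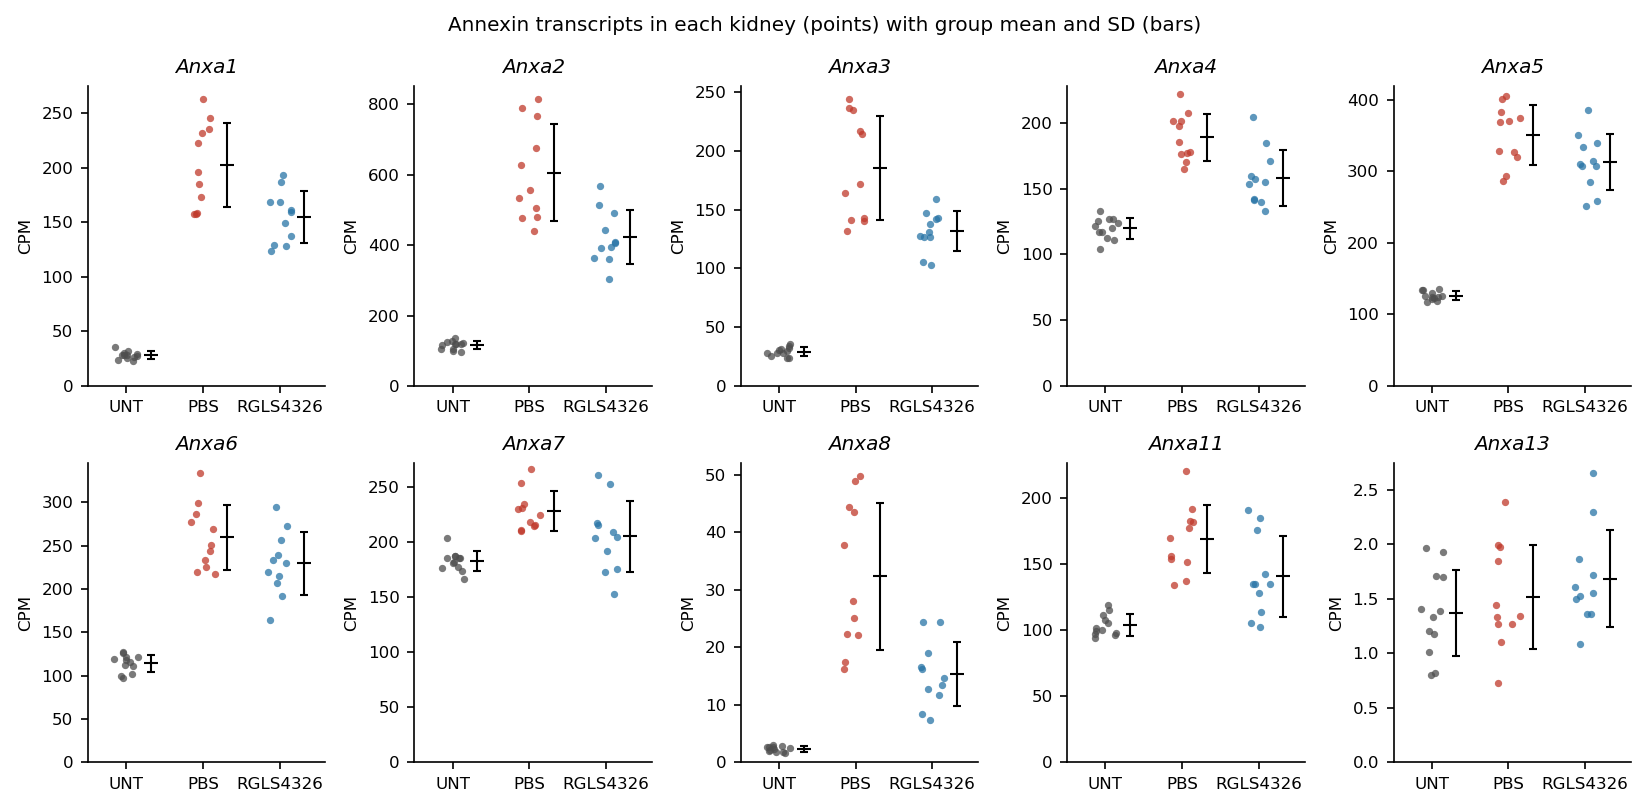
Level of each annexin (CPM, linear axis from 0) in each kidney, as points, by group (UNT n = 12, PBS n = 11, RGLS4326 n = 11); bars show the group mean and SD. In 9 panels the PBS points lie wholly above the UNT points, while in the Anxa13 panel all 3 groups lie between 0.728 and 2.65 CPM.

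In RGLS4326 vs PBS, 6 of the 10 annexins were called lower, where 18.5% of all tested genes were called lower. These were *Anxa8*, *Anxa2*, *Anxa3*, *Anxa1*, *Anxa4* and *Anxa11*. *Anxa5*, *Anxa6* and *Anxa7* had negative log2 fold changes that did not pass the test, and the estimate for *Anxa13* was positive and did not pass it either. A log2 fold change below -0.5 was reached by 2 of them, *Anxa8* and *Anxa2*, against 3.42% of all tested genes. The median log2 fold change of the 10 was -0.26, beside 0.00224 over all tested genes. In every annexin the ranges of treated and PBS mice overlapped; over all tested genes, 0.0192% had every treated mouse below every PBS mouse. Called lower were 7 with the replicate number as a block (18.0% of all tested genes) and 8 with the library series as a term (20.7%), with DESeq2 (20.0%) and with no scaling (17.6%). With the no-gene share as a covariate, 1 of the 10 was called lower, *Anxa8* (log2 fold change -0.82, adjusted p = 0.0414), beside 0.415% of all tested genes. Over all genes 145 were called in place of 5280. In that fit 5 annexins had an unadjusted p under 0.05 and all 10 estimates were negative. The median log2 fold change of all tested genes was -0.00794. Shares of all tested genes for those unadjusted and sign counts are not given, so these counts do not set the annexins apart. The other estimates called without the covariate became -0.37 for *Anxa3* (adjusted p = 0.0776), -0.32 for *Anxa2* (adjusted p = 0.0708), -0.21 for *Anxa1* (adjusted p = 0.161), -0.13 for *Anxa4* (adjusted p = 0.141) and -0.08 for *Anxa11* (adjusted p = 0.529).

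Against UNT, treated kidneys showed the same number of calls: 9 of the 10 annexins were called higher, where 40.8% of all tested genes were called higher in RGLS4326 vs UNT, with a median log2 fold change of 1.16 over the 10. Treated and UNT ranges did not overlap for *Anxa1*, *Anxa2*, *Anxa3*, *Anxa5*, *Anxa6* and *Anxa8*, as for 20.7% of all tested genes. For each of these 6 genes the log2 fold change from UNT was larger than the log2 fold change from PBS.

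**Figure D2:**
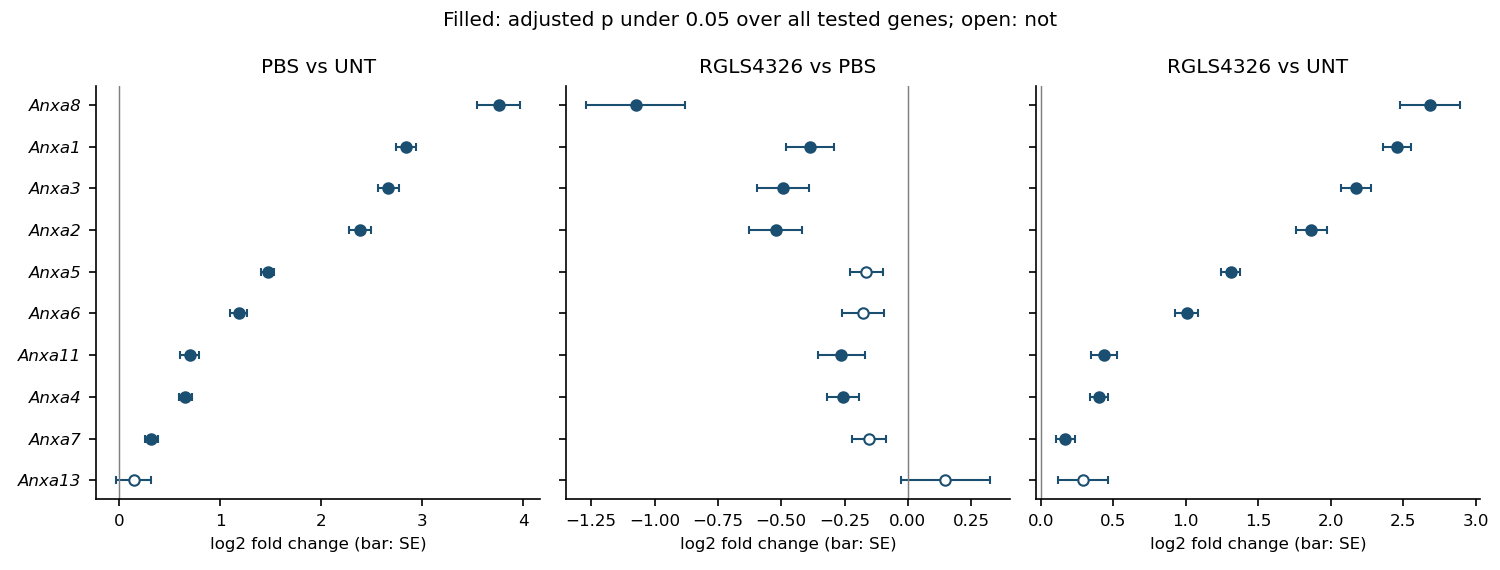
Log2 fold change of each annexin with its SE (horizontal bars) in the 3 comparisons, ordered by PBS vs UNT; the 3 panels have different axis ranges. Filled points passed an adjusted p under 0.05 over all tested genes: 9 to the right in PBS vs UNT, 6 to the left in RGLS4326 vs PBS and 9 to the right in RGLS4326 vs UNT.

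*Anxa2* (chr9:69453620-69491795, plus strand) encodes the annexin that joins S100A10 in a heterotetramer at the plasma membrane, where it binds plasminogen and its activator. The lowest, median and highest levels were 96.6, 119 and 135 CPM in UNT mice. They were 439.7, 557 and 816 CPM in PBS mice and 305, 408 and 568 CPM in RGLS4326 mice. PBS and treated mice all lay above UNT mice, and 7 of 11 treated mice lay below the lowest PBS mouse. The PBS level was 5.23-fold that of UNT (log2 fold change 2.39, SE 0.11, adjusted p = 7.07e-21, edgeR quasi-likelihood test). The level in RGLS4326 mice was lower than in PBS mice by 0.52 on the log2 scale, at 0.697-fold of PBS (SE 0.10, adjusted p = 0.00171), and was 3.65-fold that of UNT (adjusted p = 6.51e-18). Its exons share 98 bases (2.63% of their length) with an antisense gene, *Gm16144*, and the strand setting of the counting is not stated.

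*Anxa1* (chr19:20373428-20390944, minus strand) encodes the glucocorticoid-induced annexin that limits leukocyte recruitment through formyl peptide receptors. UNT mice ran from 22.5 through a median of 28.4 to 36.0 CPM. PBS mice ran from 158 through 196 to 263 CPM and treated mice from 124 through 159 to 194 CPM. Both *Pkd2*-KO groups lay wholly above UNT, and 11 of 11 treated mice lay below the PBS median. It was 7.17-fold higher in PBS than in UNT (log2 fold change 2.84, SE 0.10, adjusted p = 7.34e-24). Treated kidneys were lower than PBS by 0.39 on the log2 scale (-0.39, SE 0.09, adjusted p = 0.00506) and 5.49-fold above UNT (adjusted p = 3.68e-22).

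*Anxa8* (chr14:34085981-34100571, plus strand), an annexin best known from stratified epithelia, had the largest fold difference of the 10 between PBS and UNT and the largest between RGLS4326 and PBS. It was scarce in UNT mice, at 1.63, 2.44 and 3.05 CPM (lowest, median, highest). In PBS mice the same values were 16.2, 28.02 and 49.8 CPM, and in RGLS4326 mice 7.36, 14.7 and 24.4 CPM. The lowest *Pkd2*-KO mouse of either group was above the highest UNT mouse, and 6 of 11 treated mice lay below the lowest PBS mouse. Mice within a *Pkd2*-KO group also differed most in this gene, with a coefficient of variation of 39.5% in PBS and 36.5% in RGLS4326 mice. PBS was 13.5-fold above UNT (log2 fold change 3.76, SE 0.21, adjusted p = 6.28e-18). Treated kidneys held 0.475-fold of the PBS level (log2 fold change -1.07, SE 0.20, adjusted p = 0.000934), and 6.42-fold of the UNT level (adjusted p = 4.48e-14).

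*Anxa3* (chr5:96793339-96845966, plus strand) encodes an annexin that is abundant in neutrophils and is also made by epithelia. Its level was 23.4, 28.9 and 35.8 CPM (lowest, median, highest) in UNT mice. In PBS mice it was 132, 171 and 244 CPM, and in RGLS4326 mice 103, 131 and 159 CPM. All treated mice were below the PBS median, 6 of 11 were below the lowest PBS mouse, and all were above the UNT range. The log2 fold change was 2.67 in PBS vs UNT (6.35-fold, SE 0.11, adjusted p = 3.37e-22) and -0.49 in RGLS4326 vs PBS (0.711-fold, SE 0.10, adjusted p = 0.00218). In RGLS4326 vs UNT it was 2.17 (4.51-fold, adjusted p = 8.15e-20). A gene model on the same strand, *Gm42603*, shares 112 bases (3.07%) of its exons.

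*Anxa5* (chr3:36448923-36475894, minus strand) encodes the phosphatidylserine-binding annexin that is used as a stain for apoptotic cells. UNT mice held 117 to 136 CPM with a median of 125, PBS mice 287 to 405 CPM with a median of 369, and RGLS4326 mice 252 to 386 CPM with a median of 310.2. Both *Pkd2*-KO groups were wholly above UNT and overlapped each other. PBS was 2.78-fold above UNT (log2 fold change 1.47, SE 0.07, adjusted p = 6.42e-21) and RGLS4326 2.48-fold (adjusted p = 2.24e-19). Treated against PBS, the log2 fold change was -0.16 (SE 0.07), which missed the threshold narrowly (adjusted p = 0.0522). It passed the threshold when any of RGLS4326 replicates 3, 4, 8 and 10 or PBS replicates 5, 6, 7, 8 and 10 was left out, with log2 fold changes from -0.20 to -0.17 and adjusted p from 0.0165 to 0.0461.

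*Anxa6* (chr11:54979108-55033445, minus strand) encodes the largest annexin, built of a pair of annexin cores, which takes part in cholesterol handling and membrane organization. Its level was 97.3, 117 and 127 CPM (lowest, median, highest) in UNT mice, 217, 250.7 and 334 CPM in PBS mice and 164, 230.5 and 294 CPM in RGLS4326 mice. Again the *Pkd2*-KO groups lay above UNT with no overlap. It was 2.27-fold higher in PBS than in UNT (log2 fold change 1.18, SE 0.08, adjusted p = 8.30e-16) and 2.01-fold higher in RGLS4326 than in UNT (adjusted p = 8.57e-14). The treatment estimate was -0.18 (SE 0.08, adjusted p = 0.0846). Without RGLS4326 replicate 4, RGLS4326 replicate 10 or PBS replicate 5 it passed, at -0.22 (adjusted p = 0.0295), -0.20 (adjusted p = 0.0474) and -0.20 (adjusted p = 0.0493), respectively.

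*Anxa4* (chr6:86736840-86793584, minus strand), an epithelial annexin, was at 104 to 133 CPM in UNT mice with a median of 121. PBS mice were at 165 to 222 CPM with a median of 185, and treated mice at 133 to 205 CPM with a median of 155. PBS lay wholly above UNT, whereas 10 of 11 treated mice were above the highest UNT mouse and 8 of 11 were below the lowest PBS mouse. The log2 fold changes were 0.66 in PBS vs UNT (1.58-fold, SE 0.06, adjusted p = 5.44e-12), -0.26 in RGLS4326 vs PBS (0.837-fold, SE 0.06, adjusted p = 0.00515) and 0.40 in RGLS4326 vs UNT (SE 0.06, adjusted p = 3.97e-07). Its exons share 75 bases (1.61%) with *Gm44036* on the other strand.

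*Anxa11* (chr14:25842156-25886804, plus strand) encodes an annexin with a long, disordered tail that binds the calcium sensor encoded by *Pdcd6* and tethers RNA granules to lysosomes. UNT mice held 94.0 to 119 CPM with a median of 101, PBS mice 134 to 221 CPM with a median of 170.0, and treated mice 103 to 191 CPM with a median of 135. PBS mice were all above UNT mice, while 8 of 11 treated mice were above the highest UNT mouse and 4 of 11 were below the lowest PBS mouse. It was 1.62-fold higher in PBS than in UNT (log2 fold change 0.70, SE 0.09, adjusted p = 1.15e-08) and 1.36-fold higher in RGLS4326 than in UNT (adjusted p = 5.11e-05). In RGLS4326 vs PBS it was lower by 0.26 on the log2 scale (-0.26, SE 0.09, adjusted p = 0.0299). This call was lost without RGLS4326 replicate 5, 7 or 11 or PBS replicate 4 or 11, with log2 fold changes from -0.24 to -0.22 and adjusted p from 0.0553 to 0.0706. An antisense gene, *Anxa11os*, shares 113 bases (2.73%) of its exons. With the no-gene share as a covariate, its log2 fold change was 0.21 in PBS vs UNT (adjusted p = 0.0934), 0.12 in RGLS4326 vs UNT (adjusted p = 0.177) and -0.08 in RGLS4326 vs PBS (adjusted p = 0.529), none of which passed.

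*Anxa7* (chr14:20455260-20480133, minus strand) encodes synexin, which promotes the fusion of secretory vesicles and binds sorcin. Its values were 166 to 204 CPM in UNT mice with a median of 184, 210.2 to 267 CPM in PBS mice with a median of 225, and 153 to 261 CPM in treated mice with a median of 205. PBS mice were all above UNT mice by a small margin. Treated mice covered the whole UNT range and reached into the PBS range, short of its top. It was 1.25-fold higher in PBS than in UNT (log2 fold change 0.32, SE 0.06, adjusted p = 2.91e-05). The change was -0.15 in RGLS4326 vs PBS (SE 0.07, adjusted p = 0.0692), and that estimate passed without RGLS4326 replicate 4 (-0.19, adjusted p = 0.0172) or RGLS4326 replicate 10 (-0.19, adjusted p = 0.0231). RGLS4326 vs UNT gave 0.17 (SE 0.06, adjusted p = 0.0183), which missed the threshold without RGLS4326 replicate 4 (0.13, adjusted p = 0.0540) or RGLS4326 replicate 10 (0.14, adjusted p = 0.0506). Of the 9 called members, this was the one whose direction in these comparisons depended on the fit: with the no-gene share as a covariate its log2 fold change was -0.06 in PBS vs UNT (adjusted p = 0.387) and -0.07 in RGLS4326 vs UNT (adjusted p = 0.193), neither past the threshold.

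*Anxa13* (chr15:58341471-58389244, minus strand), known as an annexin of intestinal and renal epithelium and typed as a processed transcript in the annotation, was the scarcest member per length in every group. Its level ran from 0.802 through a median of 1.36 to 1.97 CPM in UNT mice, from 0.728 through 1.34 to 2.38 CPM in PBS mice and from 1.09 through 1.55 to 2.65 CPM in RGLS4326 mice. The ranges of all 3 groups overlapped. The log2 fold change was 0.14 in PBS vs UNT (SE 0.17, adjusted p = 0.437), 0.15 in RGLS4326 vs PBS (SE 0.18, adjusted p = 0.519) and 0.29 in RGLS4326 vs UNT (SE 0.17, adjusted p = 0.121). With unscaled library totals it passed in PBS vs UNT (0.44, adjusted p = 0.0202) and in RGLS4326 vs UNT (0.61, adjusted p = 0.00215). Without scaling the median log2 fold change of all tested genes moved from 0.022 to 0.326 in RGLS4326 vs UNT, and in PBS vs UNT as given above. *Anxa13* also passed in RGLS4326 vs UNT with the no-gene share as a covariate (0.47, adjusted p = 0.0401). Of the annexins outside the list, *Anxa9* had 9.51 ± 1.45 CPM in UNT mice, 10.8 ± 2.32 CPM in PBS mice and 9.11 ± 1.44 CPM in RGLS4326 mice (mean ± SD, n = 12, 11 and 11) and was not called in any comparison (adjusted p from 0.0747 to 0.596). *Anxa10* had no read in any of the 12 UNT mice, 1 to 4 reads in 7 of 11 PBS mice and 1 to 2 reads in 3 of 11 RGLS4326 mice, and was left out by the low-count filter.

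Levels of different genes were compared per length, as CPM per kb of the exons of their protein-coding transcripts, or of all exons for *Anxa13*, which has no such transcript in the annotation. In UNT kidneys the order from the top was *Anxa5* (72.9 ± 3.502 CPM per kb, mean ± SD), *Anxa2* (66.3 ± 6.86), *Anxa7* (59.1 ± 2.98), *Anxa4* (54.4 ± 3.65), *Anxa6* (45.9 ± 4.07) and *Anxa11* (38.2 ± 2.97), and each of these overlapped its neighbour in range. Below a gap came *Anxa1* (14.9 ± 1.91 CPM per kb) and *Anxa3* (10.5 ± 1.35), which overlapped each other, and after a further gap *Anxa8* (1.26 ± 0.259) and *Anxa13* (1.02 ± 0.293). In PBS kidneys *Anxa2* stood alone at the top (347 ± 78.2 CPM per kb), followed without overlap by *Anxa5* (203 ± 23.9). *Anxa1* moved up from the seventh place to the third (107 ± 20.5 CPM per kb). *Anxa1*, *Anxa6*, *Anxa4*, *Anxa7*, *Anxa3* and *Anxa11* followed each other with overlapping ranges, and *Anxa8* (17.2 ± 6.80) stood clear of both its neighbours. In RGLS4326 kidneys *Anxa2* (242 ± 43.5 CPM per kb) overlapped *Anxa5* (181 ± 22.7), and *Anxa11* ranked above *Anxa3*, with overlap. The order depended on the length used. Per kb of all annotated exons, a measure added after the data were seen, *Anxa5* stood above *Anxa2* in every group, at 71.0 ± 3.41 and 31.1 ± 3.21 CPM per kb in UNT, 197 ± 23.3 and 163 ± 36.7 in PBS and 176 ± 22.1 and 113 ± 20.4 in RGLS4326 mice, with overlapping ranges in the *Pkd2*-KO groups. On that measure *Anxa6* ranked next below *Anxa5* in UNT mice (39.0 ± 3.46 CPM per kb) and next below *Anxa2* in the other groups, and *Anxa1* held rank 7 in UNT and rank 4 in PBS mice.

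As a share of the summed annexin level per length, *Anxa2* made up 18.2% ± 1.35 of the total in UNT, 32.2% ± 2.23 in PBS and 28.6% ± 1.22 in RGLS4326 mice (mean ± SD). The share of *Anxa1* was 4.08% ± 0.426, 9.99% ± 0.640 and 9.72% ± 0.595 in the same order. *Anxa7* went the other way, with 16.2% ± 1.098 in UNT, 7.02% ± 0.747 in PBS and 7.88% ± 0.511 in treated mice, although its CPM was higher in PBS than in UNT. The share of *Anxa5* was 20.0% ± 0.779, 19.1% ± 1.32 and 21.5% ± 0.781. Per kb of all annotated exons, the share of *Anxa2* was 12.8% ± 0.972, 22.8% ± 1.79 and 19.8% ± 0.927, and that of *Anxa7* 12.6% ± 0.866, 5.46% ± 0.557 and 6.02% ± 0.387. These shares were not tested between groups.

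**Figure D3:**
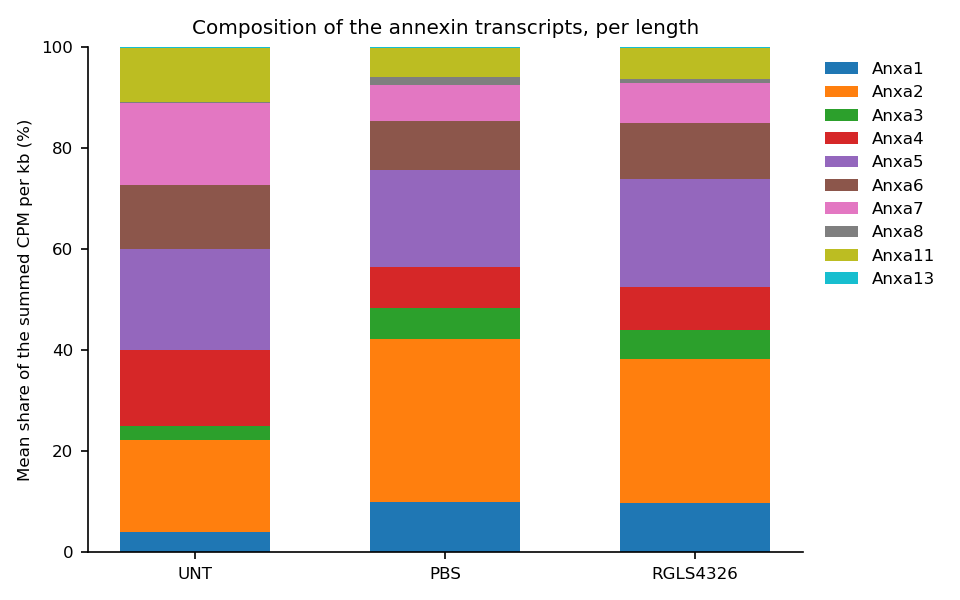
Mean share (%) of each annexin in the summed CPM per kb of the 10 genes, as stacked bars for the 3 groups. The Anxa2 segment is 18.2% of the bar in UNT, 32.2% in PBS and 28.6% in RGLS4326 mice; Anxa8 and Anxa13 are thin or invisible segments at the top.

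The 3 library series were examined for the treatment comparison, with 3 or 4 mice per group in each. For the 6 annexins called lower over all mice, the estimate was negative in each series, from -1.05 to -1.15 for *Anxa8*, from -0.44 to -0.63 for *Anxa2* and from -0.43 to -0.65 for *Anxa3*. *Anxa1* ran from -0.37 to -0.47, *Anxa4* from -0.19 to -0.38 and *Anxa11* from -0.18 to -0.43. These 6 genes were picked by their calls over the same mice, so the shared sign is not a separate test. The test of the difference between series (quasi-likelihood F test of the interaction) did not pass for any member, with adjusted p from 0.750 to 0.997. It passed for 0 of all 15644 tested genes in this comparison and for 0 in PBS vs UNT, so it does not set the members apart. Among the members its lowest unadjusted p was 0.137, for *Anxa7*. For PBS vs UNT the lowest unadjusted p of that test among the members was 0.293. Fitted alone, series 1 called 0 of the 10 annexins (4 lower at an unadjusted p under 0.05, edgeR), series 2 called 6 lower (11.9% of all genes tested in that fit), and series 3 called 0 (3 lower at an unadjusted p under 0.05, edgeR). Over all tested genes these fits called 54, 4065 and 0 genes. The share of all tested genes at the unadjusted threshold is not given, so the unadjusted counts of members in series 1 and 3 have no background. In series 2 the no-gene share was 13.9 to 14.6% in treated mice and 6.54 to 11.0% in PBS mice, ranges that did not overlap, whereas they overlapped in series 1 and 3. Series 1 and 3 together called 5 of the 10 lower, namely *Anxa1*, *Anxa2*, *Anxa3*, *Anxa4* and *Anxa8*, beside 8.56% of all genes tested in that fit, which was added after the data were seen.

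**Figure D4:**
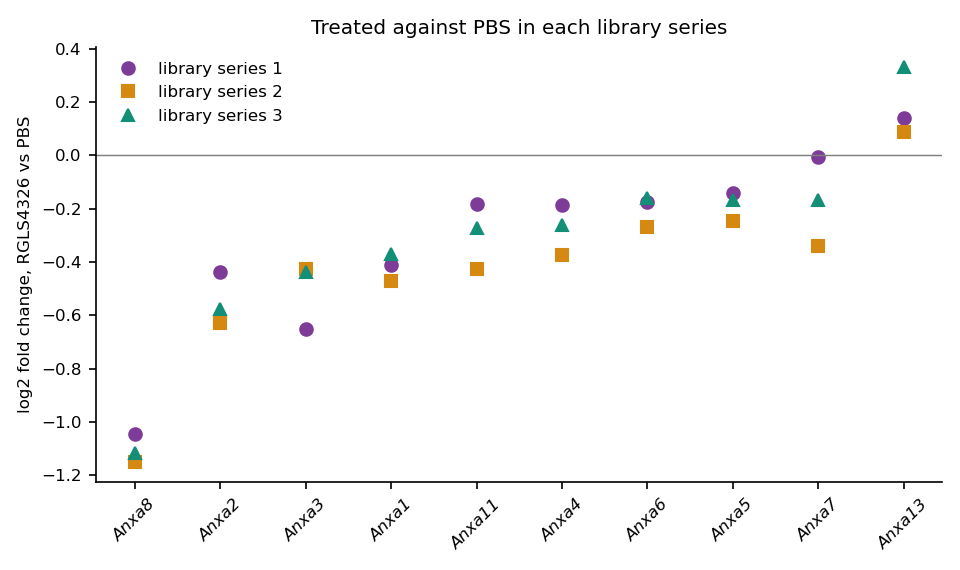
Log2 fold change of RGLS4326 vs PBS (vertical axis) for each annexin in each of the 3 library series, from a fit with a group in each series; single estimates without error bars. Anxa8 lies between -1.05 and -1.15 in all 3 series, and Anxa13 lies above 0 in all 3.

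Among PBS mice the no-gene share was compared with log2(CPM + 1) of each annexin. All 10 Pearson correlations were negative, from -0.725 for *Anxa7* to -0.0726 for *Anxa13* (n = 11), and the share of all tested genes with a negative r is not given. None passed after adjustment over the 10 genes by Pearson's r (lowest adjusted p = 0.1105, for *Anxa7*, unadjusted p = 0.01105; permutation test, 100000 permutations, two-sided), and *Anxa7* passed by Spearman's rho (-0.827, unadjusted p = 0.00251, adjusted p = 0.0251, permutation test). Leaving out the 2 mice farthest from the median share, the r of *Anxa7* was -0.633 and those of the other 9 ran from -0.501 (*Anxa13*) to -0.0148 (*Anxa11*). The treated mice fell into separate ranges of that share, 7 mice at 5.82 to 10.9% and 4 mice at 13.9 to 14.6%, so no correlation is given for them. The 4 mice were RGLS4326 replicates 5, 6 and 7, which are all the treated mice of library series 2, and replicate 11 of series 3. The split by share thus cannot be told apart from the series for most of the 4 mice. The 4 mice held 124 to 138 CPM of *Anxa1*, 133 to 143 CPM of *Anxa4*, 153 to 192 CPM of *Anxa7* and 7.36 to 16.2 CPM of *Anxa8*. The other 7 held 149 to 194, 153.5 to 205, 204 to 261 and 11.8 to 24.4 CPM. *Anxa1*, *Anxa4* and *Anxa7* were lower in the 4 mice with no overlap, as were 11.2% of all tested genes, and the other 7 annexins overlapped. These sets were drawn from the data and are not groups of the study.

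Correlations between annexins over the mice were taken within each group. In PBS mice, 30 of the 45 pairs of annexins had a Pearson correlation of log2(CPM + 1) with an adjusted p under 0.05 (permutation test, 100000 permutations, adjusted over the 45 pairs), all 30 were positive, and 27 passed by Spearman's rho as well. The median r over the 45 pairs was 0.727, against -0.002 over all pairs of tested genes in the same mice, 7.91% of which had an r as high as the lowest of the 30 (0.648). Without the 2 mice farthest from the median of the first gene of a pair, r of the 30 ran from 0.277 (*Anxa6* with *Anxa11*) to 0.953. The closest pair was *Anxa1* with *Anxa2* (r = 0.950, rho = 0.964, adjusted p = 0.0009 and 0.0018, permutation test, n = 11), and r was 0.950 after the 2 mice farthest from the median of *Anxa1* were left out. *Anxa13* was in none of the 30 pairs, and its r with the other 9 ran from -0.567 to 0.00931.

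In RGLS4326 mice 34 of 45 pairs passed by r over all 11 mice, all positive, and 26 by both measures. The median r was 0.771, against 0.008 over all pairs of tested genes, 10.1% of which had an r as high as the lowest of the 34 (0.631). These mice fell into 7 and 4 by the share of reads in no gene, and the 34 pairs pool both. Without 2 mice r of the 34 ran from 0.386 (*Anxa3* with *Anxa5*, 0.779 over all 11) to 0.939. Within the 7 mice of lower no-gene share, taken after seeing the data and with no test, r was positive in 45 of 45 pairs, from 0.314 to 0.981, with a median of 0.692. No value over all pairs of tested genes is given for these 7 mice, so their r cannot be judged against other genes. *Anxa13* changed sign between these ways of counting, with r to *Anxa1* of -0.462 over the 11 mice and 0.569 over the 7. The 4 other treated mice are too few for a correlation.

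In UNT mice 3 of the 45 pairs passed by r and 2 by both measures, with a median r of 0.0662, against 0.002 over all pairs of tested genes. Of the 3 pairs 2 were positive, and 1.32% of all pairs had an r as high as the lower of these (0.788). *Anxa1* and *Anxa2* were again positively related (r = 0.816, rho = 0.853, adjusted p = 0.0196 and 0.0173, permutation test, n = 12; r = 0.836 without 2 mice). *Anxa3* and *Anxa11* were related inversely (r = -0.920, rho = -0.902, adjusted p = 0.00135 and 0.0063, permutation test, n = 12; r = -0.922 without 2 mice). That same pair had r = 0.548 in PBS mice (adjusted p = 0.105, permutation test). Differences of a correlation between groups were not tested. All values of a mouse come from 1 library and share its scaling, and the library series held 3 or 4 mice of a group, too few to recompute a correlation within them.

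**Figure D5:**
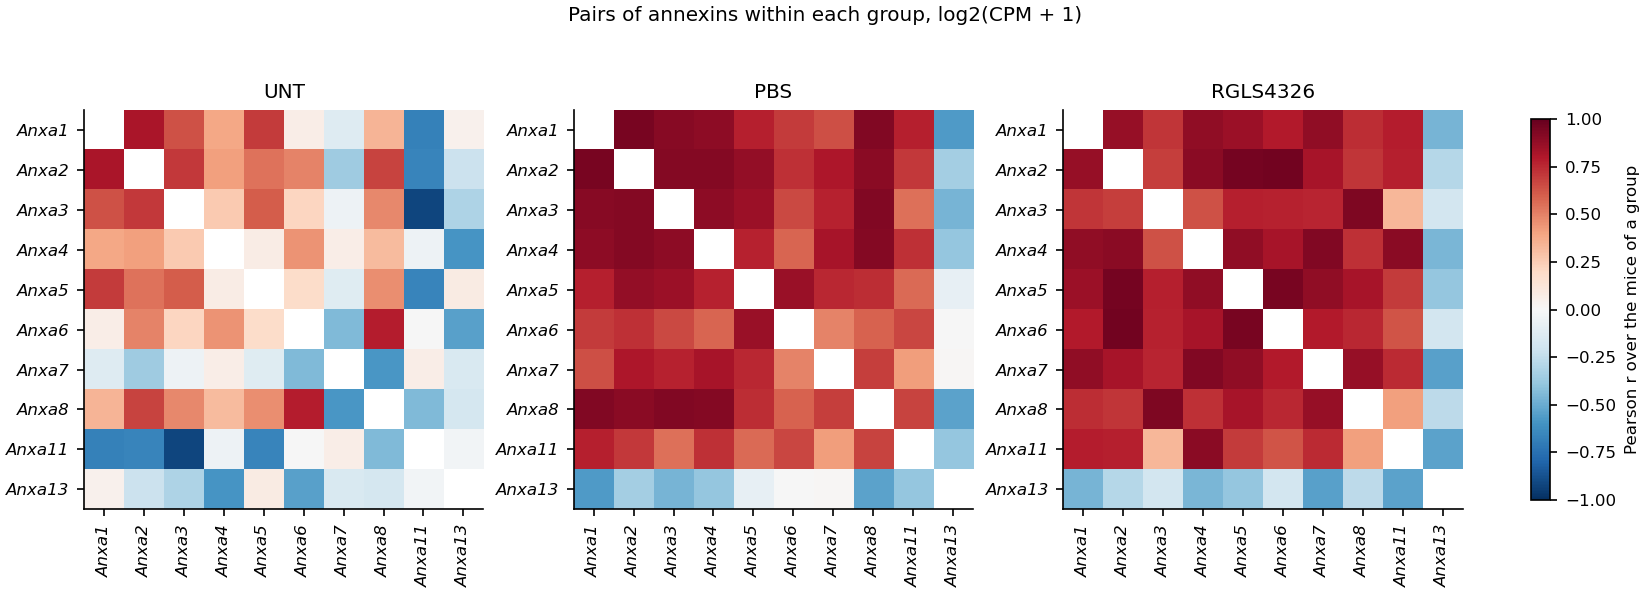
Pearson r of each pair of annexins over the mice of a group (UNT n = 12, PBS n = 11, RGLS4326 n = 11), as colours from -1 (blue) to 1 (red). The PBS and RGLS4326 panels are mostly red outside the Anxa13 row, with median r of 0.727 and 0.771, and the UNT panel is mixed, with a median of 0.0662.

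The genes whose levels followed each annexin most closely over all 34 mice, after the mean of each group was removed, are given as a description, by Pearson r of log2(CPM + 1). For the 20 pairs so chosen, 2 for each annexin, r within a group had a median of 0.684 in UNT, 0.900 in PBS and 0.950 in RGLS4326 mice, and it was lowest in UNT mice for *Anxa5* with *Tagln2* (0.265), *Anxa8* with *Clu* (0.372) and *Anxa13* with *Lhfpl1* (0.376). *Anxa2* was followed by *Cfl1*, which encodes the actin-severing protein cofilin (r = 0.945), and by *S100a11*, an S100 partner of annexins (r = 0.930). *Anxa1* was followed by *Tpm3*, a tropomyosin gene (r = 0.894), and by the serpin gene *Serpinb6a* (r = 0.890), and *Anxa5* by *Cfl1* (r = 0.871) and *Tagln2*, a transgelin gene (r = 0.867). For *Anxa4* the nearest were the actin-capping gene *Capg* (r = 0.897) and the tetraspanin gene *Cd9* (r = 0.895), and for *Anxa6* *Cap1*, an actin-binding cyclase-associated protein gene (r = 0.890), and the tubulin gene *Tuba1a* (r = 0.846). *Anxa8* was nearest to *Clu*, which encodes clusterin (r = 0.919). *Anxa3* was nearest to *Basp1* (r = 0.836) and *Gusb*, the lysosomal beta-glucuronidase gene (r = 0.825). *Anxa11* was nearest to the hexokinase gene *Hk1* (r = 0.929) and the kidney cadherin gene *Cdh16* (r = 0.903), and *Anxa7* to *Eif3l*, a translation initiation factor gene (r = 0.907), and *Sqstm1*, the autophagy receptor p62 gene (r = 0.892). *Anxa13* had no neighbour as close, with *Mtbp* (r = 0.617) and *Lhfpl1* (r = 0.609) on top.

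Genes of annexin partners were examined from a list of 11, of which 9 were tested. Calls for this list and those that follow, markers included, come from the fit without a covariate. That fit called 5280 genes in RGLS4326 vs PBS, against 145 with the no-gene share as a covariate, and the lists are not given in the latter. In PBS vs UNT 8 were called higher, where 43.1% of all tested genes were, with a median log2 fold change of 1.72 over the 9 (0.04 over all tested genes), and *Pdcd6* was not called (0.07, adjusted p = 0.211). *Ahnak*, which encodes a giant scaffold bound by the annexin 2 tetramer, went from 235 ± 19.5 to 773 ± 105 CPM (log2 fold change 1.72, adjusted p = 3.64e-22). *S100a6*, a partner of annexin 11, went from 45.02 ± 8.06 to 568 ± 197 CPM (3.66, adjusted p = 1.16e-20). *S100a10*, the annexin 2 partner, had 75.7 ± 8.53 CPM in UNT mice, 184 ± 41.8 CPM in PBS mice and 145 ± 20.9 CPM in RGLS4326 mice, and is named here after its values were seen. In RGLS4326 vs PBS 7 of the 9 were called lower, against 18.5% of all tested genes, with *S100a6* (log2 fold change -0.82, adjusted p = 0.00129) and *S100a11* (-0.65, adjusted p = 0.00131) the clearest. *Fpr1*, a formyl peptide receptor gene on neutrophils and macrophages, was called higher, where 15.3% of all tested genes were, with 0.0351 ± 0.0278 CPM in UNT mice, 0.876 ± 0.479 CPM in PBS mice and 1.99 ± 0.893 CPM in RGLS4326 mice (RGLS4326 vs PBS log2 fold change 1.19, adjusted p = 0.00255). Against UNT, treated kidneys had 7 of the 9 called higher, where 40.8% of all tested genes were, led by *Ahnak* (1.54, adjusted p = 8.73e-21) and *S100a6* (2.84, adjusted p = 8.01e-18), with a median of 1.54.

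Of 10 genes of the plasminogen system, in which annexin 2 acts as a surface receptor, 8 were tested. In PBS vs UNT 4 were called higher and 4 lower, where 43.1% of all tested genes were called higher and 39.0% lower. Among those higher, *Serpine2*, which encodes a serine protease inhibitor, went from 35.6 ± 3.89 to 144 ± 21.7 CPM (log2 fold change 2.01, adjusted p = 6.83e-21). *Serpinf2*, the plasmin inhibitor, was lower (-2.81, adjusted p = 7.75e-09), as was *Plgrkt*, a plasminogen receptor gene (-0.48, adjusted p = 7.48e-06). In RGLS4326 vs PBS 2 were called lower, among them *Plaur*, the urokinase receptor gene (-0.53, adjusted p = 0.00192), and 6 did not pass, beside 18.5% of all tested genes called lower. In the comparison of RGLS4326 with UNT, 3 were called higher, among them *Serpine2* (2.04, adjusted p = 7.33e-21), and 3 lower, led by *Serpinf2* (-2.44, adjusted p = 1.21e-07) and *Eno1* (-0.51, adjusted p = 1.48e-05), where 40.8% of all tested genes were called higher and 36.9% lower. *Eno1* has near-identical copies in the mouse genome, so its count is uncertain. The median log2 fold changes of the 8 genes were 0.02, -0.00904 and 0.11 in the same order of comparisons.

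Of 16 genes of plasma membrane repair, 15 were tested. In PBS vs UNT 10 were called higher and 1 lower (median log2 fold change 0.62), beside 43.1% and 39.0% of all tested genes. The clearest were *Myof*, the ferlin gene myoferlin, from 81.8 ± 11.1 to 344 ± 63.2 CPM (2.07, adjusted p = 7.51e-20), and *Ehd2*, a caveolar ATPase gene, from 52.8 ± 6.26 to 178 ± 24.8 CPM (1.75, adjusted p = 1.41e-19), while *Smpd1*, acid sphingomyelinase, was lower (-0.33, adjusted p = 1.16e-06). Between treated and PBS mice 6 were called lower (median -0.13), beside 18.5% of all tested genes, led by the calpain subunit genes *Capns1* (-0.45, adjusted p = 0.00328) and *Capn1* (-0.45, adjusted p = 0.00354), and *Vps4b*, an ESCRT ATPase gene, was called higher (0.15, adjusted p = 0.0428), beside 15.3% of all tested genes. Between treated and UNT mice 11 were called higher, led by *Myof* (1.96, adjusted p = 4.99e-19) and *Ehd2* (1.51, adjusted p = 1.23e-17), and 2 lower, *Smpd1* (-0.48, adjusted p = 6.62e-10) and *Ehd1* (-0.21, adjusted p = 0.0246), with a median of 0.50, beside 40.8% higher and 36.9% lower over all tested genes.

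The copines, another family of calcium-dependent phospholipid-binding proteins, served as a set beside the annexins, with 7 of 9 genes tested. In PBS vs UNT 4 were called higher, led by *Cpne8* (log2 fold change 1.52, adjusted p = 4.89e-21) and *Cpne2* (0.74, adjusted p = 6.44e-10), and *Cpne4* was lower (-3.42, adjusted p = 1.13e-15), with a median of 0.35. Over all tested genes 43.1% were higher and 39.0% lower. Relative to PBS, in treated mice *Cpne4* (0.67, adjusted p = 0.0318) and *Cpne7* (0.46, adjusted p = 0.0449) were called higher and *Cpne5* lower (-0.48, adjusted p = 0.0426), with a median of 0.12, beside 15.3% and 18.5% of all tested genes. Relative to UNT, 6 were called higher in treated mice, led by *Cpne8* (1.53, adjusted p = 6.92e-21) and *Cpne2* (0.53, adjusted p = 8.98e-07), and *Cpne4* was lower (-2.75, adjusted p = 2.28e-13), with a median of 0.53, beside 40.8% and 36.9% of all tested genes.

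Markers of the kidney's cell types moved with the same groups, and their part in the annexin differences was not tested. Their counts stand beside 43.1% of all tested genes called higher and 39.0% lower in PBS vs UNT, and 15.3% higher and 18.5% lower in RGLS4326 vs PBS. All 8 markers of simple and injured epithelium were called higher in PBS vs UNT and 6 of 8 lower in RGLS4326 vs PBS, and they summed to 313 to 489.8 CPM in UNT, 2505 to 5372 CPM in PBS and 1439.6 to 3514 CPM in treated mice. Of 8 tested macrophage markers, 8 were higher in PBS and 5 lower with treatment, with sums of 114 to 195, 974 to 2996 and 885 to 1869 CPM. Neutrophil markers stayed scarce, at 1.63 to 7.94, 9.04 to 46.4 and 11.6 to 24.0 CPM, with 6 of 6 tested genes higher in PBS and 1 lower with treatment. Lymphocyte markers summed to 4.25 to 8.08, 11.1 to 34.7 and 9.07 to 16.3 CPM, with 4 of 8 higher and 1 lower in PBS and 4 lower with treatment.

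The same shares of all tested genes, 43.1% higher and 39.0% lower in PBS and 15.3% higher and 18.5% lower with treatment, stand beside the other marker lists. Fibroblast and myofibroblast markers were higher in PBS in 8 of 8 genes, with sums of 705 to 1651 CPM in UNT, 3556 to 7405 CPM in PBS and 4670.1 to 6803 CPM in treated mice, where 1 of 8 was called higher and 7 did not pass. Collecting duct markers were higher in 6 of 7 and lower in 1 in PBS, and lower in 4 of 7 with treatment, at 646 to 1012, 947 to 2385 and 508 to 2061 CPM. Proximal tubule markers were lower in PBS in 8 of 8 and higher with treatment in 5, at 12636 to 16973, 1591 to 4502 and 2735 to 4868 CPM. Thick limb and distal tubule markers were lower in 5 of 5 and higher with treatment in 4, at 8006 to 12173, 2493 to 4832 and 3872 to 5704 CPM. Podocyte markers were lower in 4 of 5 and higher in 1, and endothelial markers lower in 4 of 6 and higher in 2, in PBS, and 4 of each were higher with treatment, at 586 to 728, 354 to 459 and 420 to 499 CPM and at 470.1 to 608, 400.2 to 536 and 480.1 to 597 CPM. Red cell markers were at 46.3 CPM or less, with *Hbb-bt* at 0 in all mice, and the 1 of 6 that was tested was lower in PBS and not called with treatment.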

How the data were processed

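The authors prepared stranded libraries from polyA RNA of 34 kidneys, trimmed the paired-end reads (Trim Galore), aligned them to the GRCm38 (mm10) assembly (STAR) and assigned reads with a unique alignment to genes (HTSeq, version 0.6.1 in the submitters' processing notes). Each deposited table held the resulting counts of 1 mouse by gene symbol, unnormalized. The gene annotation and strand setting of the counting were not given in the sources used here. The summary rows of the counter were left out of library sizes. Groups came from the sample labels.

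All 34 libraries entered 1 edgeR fit (version 4.0.16, R 4.3.3) with 3 groups and no covariate, after filterByExpr and TMM scaling. The quasi-likelihood test was two-sided, adjusted p denotes Benjamini-Hochberg adjustment over all 15644 tested genes, and genes were called under 0.05. The SE of a log2 fold change was its size divided by the square root of F. The procedure was tested on simulated counts. Correlations used log2(CPM + 1), with a pseudocount of 1. The members and gene lists were chosen with earlier results of these data known. Named were all 10 annexins and Anxa9 and Anxa10; of each list, the 2 genes with the smallest p in each direction and comparison; and the 2 genes outside the family nearest to each annexin by r. Some genes that this rule names are not reported here. The alternatives were DESeq2 (version 1.42.0), its size factors, no scaling, no filter, the library series as a term or alone, the replicate number as a block, the no-gene share as a covariate, and each library left out. Library sizes ran from 17603122 to 54981992 reads in genes. The libraries of a group were separate mice by their labels.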

Additional observations from a re-analysis of the deposited data

How the results depend on the processing

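The count of annexins called in PBS vs UNT (9) ran from 7 to 10 over the alternatives and was 9 without any single library. In RGLS4326 vs PBS the count (6) ran from 5 to 9 when single libraries were left out. It was 9 without RGLS4326 replicate 4 or 10, where 3286 and 3231 of all tested genes were called lower, beside 2892 with all libraries. It was 5 without RGLS4326 replicate 5, 7 or 11 or PBS replicate 4 or 11, where 2305 to 2440 of all tested genes were called lower. The count was 8 with the library series as a term, with DESeq2 and with no scaling, where 20.7%, 20.0% and 17.6% of all tested genes were called lower, beside 18.5%. It was 1 with the no-gene share as a covariate, 0 in library series 1 alone and 0 in series 3 alone; the cause was not tested. In RGLS4326 vs UNT the count (9) ran from 6 (series 2 alone) to 10, and from 8 to 9 without single libraries. Series 1 and 3 together, an alternative chosen after seeing the data, gave 9, 5 and 9. Among called estimates the sign turned for Anxa7: with the no-gene share as a covariate to -0.0647 in PBS vs UNT and to -0.0724 in RGLS4326 vs UNT, and in series 2 alone to -0.0041 in RGLS4326 vs UNT; the cause was not tested. With DESeq2's size factors its RGLS4326 vs UNT estimate was 0.13 (adjusted p = 0.0551).

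With the replicate number as a block (replicate block), 9, 7 and 9 annexins were called in the 3 comparisons, the added one being Anxa7 in RGLS4326 vs PBS, where 18.0% of all tested genes were called lower. Of 33 same-numbered pairs, 10 had a correlation of deviations above 0.1, with r from -0.415 to 0.454, and 2 of 34 mice correlated best with their own number. No expected count stands beside these values, so they cannot decide whether same-numbered mice were paired. The order of levels per length and the shares changed with the exon length used, an alternative chosen after seeing the data. Anxa10, with at most 4 reads in any library, did not pass the low-count filter.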
